A study of Homo sapiens with 4 samples.

Results

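CRABP1, CYP26A1 and RARG, a binding protein, a degrading enzyme and a receptor of retinoic acid, were followed in the RNA that tagged ribosomes of the ATOH1 lineage carried. They were chosen by name, as 3 of the 1654 genes that could be tied to their transcripts in these libraries. Earlier results from these data were in view when the choice was made. Each of the 1654 had also passed the study's own test beforehand, which makes the 3 genes a selected set. CRABP1 was 14.7 ± 1.22 times and CYP26A1 9.44 ± 1.07 times as abundant in the immunoprecipitates (IPs) as in the input. RARG was 0.387 ± 0.0390 times as abundant. These are ratios of TPM, Salmon's length-scaled abundance (mean ± SD, n = 3 IPs over 1 input). On counts scaled to library size adjusted by edgeR's TMM, the scale of the log2 fold changes below, the ratios were 18.5, 11.9 and 0.473. The cells came from a clonal line of the human embryonic stem cell line RUES2 that carries ATOH1-EGFP-L10a, a ribosomal subunit fused to EGFP and driven by a human ATOH1 enhancer, at 28 days in vitro (DIV28). The 3 IPs hold RNA pulled down with GFP antibodies in 3 independent differentiation experiments. The 1 input library came from the same line and day, and a figure caption of the study calls the input unbound. The labels do not tell whether its RNA was left over from a pulldown or taken before it. All cultures received dual SMAD inhibition (SB431542 and LDN-193189), CHIR99021, FGF2, BMP7, BDNF and puromycin in medium with N2 and with a B27 supplement that holds no retinoic acid.

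Retinoic acid is made within cells from retinol, in steps catalysed by retinol dehydrogenases and ALDH1A enzymes. Inside the cell it is carried by the CRABP proteins, oxidised and cleared by the CYP26 enzymes, and read by the RAR and RXR receptors, which sit on DNA as pairs and switch genes on when the ligand is bound. In the embryo it sets posterior identity in the hindbrain, where HOX genes of the anterior groups are among its best known targets, and CYP26 enzymes keep it away from the anterior hindbrain.

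The files of 2 samples and their labels disagree. The library deposited for the sample labelled input carries the file tag of the IPs, and a library deposited for a sample labelled IP carries a second tag. The title of the input sample holds both tags, and the titles of the IP samples only that of the IPs. The library with the second tag was taken as the input here, and the library labelled input, used as an IP, stands first wherever the 3 IP values are listed. Log2 ratios were compared with those of the study's gene table across 491 genes, tied in the last step by mean count alone. With the library of the second tag as input they correlated at r = 0.850. With each of the other libraries in that place r was -0.661, -0.706 and -0.627 (a correlation across genes, which are not independent replicates). The scaling behind those mean counts had been fitted on transcripts matched by fold change with the library of the second tag as input. The check is therefore not independent of that choice. With the labels followed instead, the log2 fold changes of CRABP1, CYP26A1 and RARG were -0.37, -0.70 and 0.33, and none of the 3 passed the test (adjusted p = 1.0, edgeR).

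Total estimated counts were 34603230 to 37719839 in the IPs, against 41173019 in the input. ATOH1, whose enhancer drives the tag, was at 37.8, 50.6 and 44.1 TPM in the IPs, against 0.304 TPM in the input, where it rests on 7 reads. By edgeR's test 29.3% of tied genes, all of them called by the study, were higher in the IPs and 27.1% lower. Of 11 rhombic lip and granule cell progenitor markers listed, 9 could be tied, and 8 of these were higher. The 9 summed to 1201 to 1833 TPM in the IPs, against 76.9 TPM in the input. Most of the sum in the IPs was HES6, at 1352, 980 and 837 TPM, against 22.5 TPM in the input. Markers of mesenchyme ran the other way. Of 12 listed, 4 could be tied, and 3 of these were lower in the IPs. The 4 summed to 1298 to 1575 TPM in the IPs, against 11470 TPM in the input. Most of this was COL1A2, at 1275, 1181 and 1003 TPM in the IPs, against 10370 TPM in the input. Of 10 neural crest markers listed only SNAI2 could be tied. SNAI2 was also lower in the IPs, at 121 to 125 TPM, against 299 TPM in the input. CLDN5, the 1 endothelial marker of 9 listed that could be tied, was at 9.42 to 23.7 TPM in the IPs, against 0.609 TPM in the input. Single tied genes do not stand for the rest of their lists. In such bulk libraries fewer cells of a type and less RNA per cell cannot be told apart. The part of these markers in the differences below was not tested.

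CRABP1 encodes a small cytoplasmic protein that binds retinoic acid with high affinity. The gene lies at chr15:78632695-78640567 on the plus strand (GRCh37) and is represented by 1 transcript of 772 bases. An annotated gene without a symbol overlaps it on the other strand. CRABP1 drew 166671, 202951 and 186320 estimated counts in the IPs, against 11055 in the input. In TPM these were 10502, 12046 and 10438 in the IPs, against 748 in the input. The IPs lay close together, the highest 1.18 times the lowest in CPM, the counts scaled to TMM-adjusted library size. All 3 were far above the input.

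CRABP1 was among the most abundant features of the pulled-down RNA. Its rank by TPM among all genes and untied transcripts was 3, 3 and 4 in the IPs, against 184 in the input. It took 0.482%, 0.551% and 0.494% of all estimated counts in the IPs and 0.0269% in the input (95% Wilson intervals 0.479% to 0.484%, 0.548% to 0.553%, 0.492% to 0.496% and 0.0264% to 0.0274%, which cover counting error only). The log2 fold change of IP over input was 4.21 (SE 0.175, adjusted p = 0.0168, quasi-likelihood test of edgeR, Benjamini-Hochberg adjusted over 43721 features). By the same test 3.8% of features were called, 2.31% higher in the IPs and 1.49% lower. Short transcripts were generally higher in the IPs. The length classes here and below hold only features with a mean of at least 10 CPM over the libraries. Features with an effective length of 500 to 1000 bases, the class CRABP1 belongs to, had a median log2 fold change of 0.69 and a 95th percentile of 1.70, below the value of CRABP1.

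**Figure D1:**
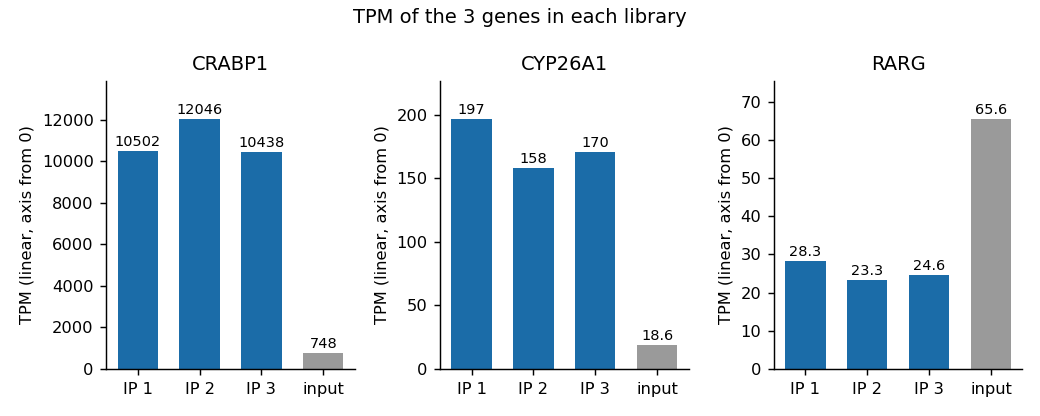
TPM (linear axis from 0) of CRABP1, CYP26A1 and RARG in the 3 IP libraries (blue) and the 1 input library (grey), 1 bar per library. The IP bars stand at 10438 to 12046 TPM for CRABP1 and 158 to 197 TPM for CYP26A1, above the input, and at 23.3 to 28.3 TPM for RARG, below it.

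CYP26A1 encodes a cytochrome P450 enzyme that oxidises retinoic acid, and its own gene is a known target of the retinoic acid receptors. It lies at chr10:94833232-94837642 on the plus strand (GRCh37), just downstream of its paralogue CYP26C1, and an annotated gene without a symbol overlaps both on the same strand. The 2 transcripts of the gene start at separate sites. The longer, of 2245 bases, has the length of the annotated transcript that begins at 94833232, and the shorter, of 2119 bases, is within a few bases of the one that begins at 94833650. The shorter transcript held 97.1%, 97.7% and 98.1% of the gene's TPM in the IPs and 94.7% in the input.

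A pair of nuclear receptor half-sites lies just upstream of the start of that shorter transcript. Receptors of retinoic acid are known to bind 2 half-sites in tandem, with a spacer of 5 bases (DR5) as the classical arrangement. The RefSeq promoter windows (GRCh38.p14, 300 bases each, reaching from before each start into the first exon) were searched on both strands for 2 half-sites in the same orientation, at spacers of 5, 2 or 1 bases. A half-site was AGGTCA in its most usual form, and AGTTCA was taken as well, as were the forms GGGTCA and, with both changes at once, GGTTCA. The match in CYP26A1 is shown because it falls at the start that gave nearly all reads of this gene, with the half-sites in capitals, at chr10:94833554-94833582 on the minus strand of GRCh37.
CYP26A1, half-sites and spacer at -90 to -74 from the start, with flanking bases: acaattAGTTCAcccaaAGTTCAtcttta
A match at a spacer of 5 was present in 31 of all 35116 windows (0.0883%), and one at any of the 3 spacers in 91 (0.259%). The search pattern had been checked on the letters of the CYP26A1 match itself. That match was therefore known beforehand, and the shares do not measure how unexpected it is. These letters were not in the window of the upstream CYP26A1 start, nor in those of CRABP1 and RARG. Of the 17 retinoic acid genes described below, 12 had windows, and 1, CYP26A1, held a match. The match is a feature of the sequence and was not measured as a binding site.

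CYP26A1 drew 11204, 9547 and 10893 estimated counts in the IPs, against 985 in the input. Per length these were 197, 158 and 170 TPM in the IPs, against 18.6 TPM in the input. The highest IP was 1.21 times the lowest in CPM, and no IP came near the input. CYP26A1 had ranks of 754, 966 and 876 by TPM in the IPs, against 6557 in the input. Its log2 fold change was 3.57 (SE 0.191, adjusted p = 0.0186, edgeR). Features of 1000 to 2000 bases of effective length, its class, had a median log2 fold change of 0.26 and a 95th percentile of 1.58. Both transcripts were higher in the IPs. The longer was at 3.26 to 5.81 TPM in the IPs, against 0.988 TPM in the input, and the shorter at 191, 155 and 167 TPM in the IPs, against 17.6 TPM in the input.

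RARG encodes retinoic acid receptor gamma, a ligand-activated transcription factor. It lies at chr12:53604351-53626764 on the minus strand (GRCh37), with 7 transcripts. It drew 2165, 1903 and 2099 estimated counts in the IPs, against 4817 in the input. In TPM these were 28.3, 23.3 and 24.6 in the IPs, against 65.6 in the input, so that every IP was below the input. The receptor thus moved opposite to the binding protein and the enzyme. RARG had ranks of 4105, 4650 and 4335 by TPM in the IPs, against 2412 in the input. Its log2 fold change was -1.08 (SE 0.144, adjusted p = 0.0432, edgeR). Among features of 2000 to 3000 bases of effective length the median was -0.16 and the 5th percentile -1.37, so RARG lay within the range of its length class, unlike the other two.

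The reads of RARG were spread over several transcripts, and the split varied between IPs. The transcript with the most reads, uc001scf.3 of 2967 bases, was assigned 24.5%, 40.1% and 31.3% of the gene's TPM in the IPs and 42.4% in the input. Another, uc001scg.3 of 2641 bases, was assigned 24.6%, 40.6% and 35.3% in the IPs, against 21.7% in the input. Together they moved in step between IPs, while uc001sce.3 held 20.1%, 6.19% and 8.98% in the IPs, against 19.9% in the input. Taken alone, uc001scf.3 had a log2 fold change of -1.46 (adjusted p = 0.0655, edgeR), which did not pass the test. Alone, this transcript thus had the direction of the summed gene but not its call, and the other RARG transcripts are not given alone.

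**Figure D2:**
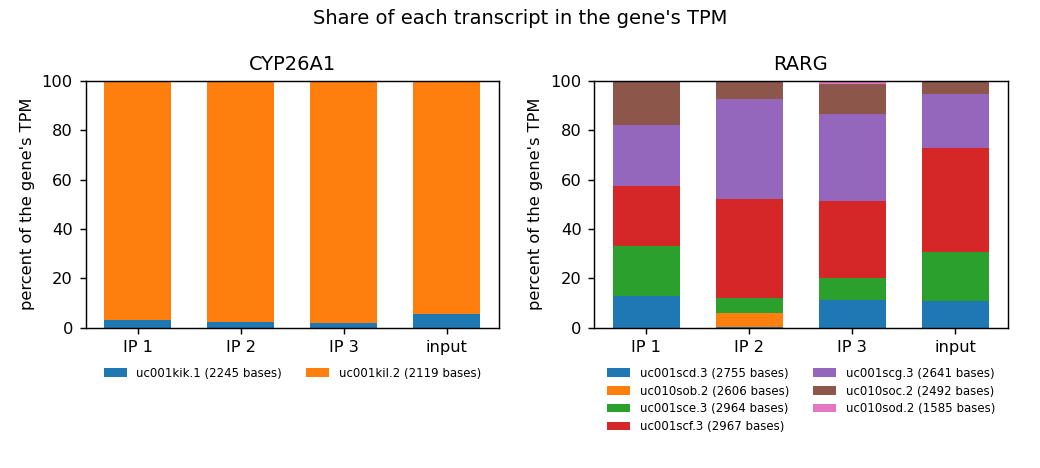
Share of each transcript in the TPM of CYP26A1 (left) and RARG (right), in percent, in the 3 IP libraries and the 1 input library, with transcript lengths in the legend. The shorter CYP26A1 transcript holds 94.7% or more in every library, whereas the shares of the RARG transcripts differ from one IP to the next.

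For each of the 3 genes the 3 IPs lay on 1 side of the input. Over all features tested, the 3 IPs were all above the input in 28.2% and all below it in 33.5%. Among tied genes, all of them called by the study, these shares were 50.8% and 49.2%. Lying on 1 side of the input therefore does not set the 3 genes apart. The spread among IPs was 8.35% of the mean for CRABP1, 9.55% for CYP26A1 and 7.95% for RARG (CV of CPM), against a median of 9.59% over tied genes of at least 10 CPM. With 3 libraries against 1, the exact two-sided permutation test cannot go below p = 0.25, which each of the 3 genes reached. The adjusted p-values lean on the spread estimated over all features, and the input, a single library, is assumed to vary like the IPs. They held with all 3 IPs only. With any 1 IP left out the fold changes stayed at 4.13 to 4.27 for CRABP1, 3.51 to 3.62 for CYP26A1 and -1.14 to -1.04 for RARG, with adjusted p from 0.108 to 0.202 (edgeR). With limma-voom they were 4.21, 3.56 and -1.09, with adjusted p of 0.0718, 0.0692 and 0.0692.

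Set against each other within a library, the 3 genes came in another order in the pulled-down RNA. In TPM, the order was CRABP1, CYP26A1, RARG in all 3 IPs, and CRABP1, RARG, CYP26A1 in the input. CYP26A1 had 6.97, 6.78 and 6.94 times the TPM of RARG in the IPs and 0.283 times in the input. This ratio was the steadiest of those computed (6.90 ± 0.105 over the IPs, SD, n = 3). CRABP1 had 372, 516 and 425 times the TPM of RARG in the IPs and 11.4 times in the input. CRABP1 over CYP26A1 differed less between IPs and input, at 53.3, 76.1 and 61.2 times in the IPs and 40.3 times in the input.

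CRABP2, which encodes a related binding protein that delivers retinoic acid to the nucleus, was at 685, 649 and 679 TPM in the IPs, against 445 TPM in the input. It was higher by 0.93 on the log2 scale (SE 0.123, adjusted p = 0.0429, edgeR), against 4.21 for CRABP1; the difference between the genes was not tested. CRABP1 thus had 15.3, 18.6 and 15.4 times the TPM of CRABP2 in the IPs, against 1.68 times in the input. CYP26C1, a second retinoic acid hydroxylase, was scarce, at 6.83, 4.02 and 4.09 TPM in the IPs, against 0.230 TPM in the input, where it drew 12 counts. Its log2 fold change of 4.43 (SE 0.771, adjusted p = 0.0644, edgeR) did not pass. CYP26A1 had 28.9, 39.3 and 41.7 times the TPM of CYP26C1 in the IPs, against 80.8 times in the input.

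**Figure D3:**
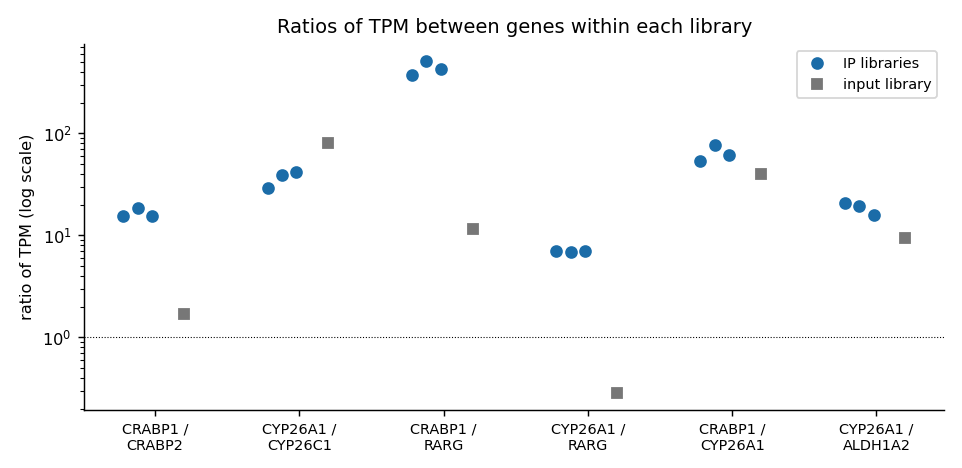
Ratio of the TPM of 2 genes within each library (log scale), for the 3 IP libraries (blue circles) and the 1 input library (grey squares); the dotted line marks a ratio of 1. CYP26A1 over RARG lies at 6.78 to 6.97 across the IPs, against 0.283 in the input, and CRABP1 over CRABP2 at 15.3 to 18.6 across the IPs, against 1.68 in the input.

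The other genes of the pathway were taken from a list of 52, of which 17 could be tied to transcripts, the 3 genes above included. The remaining 35, among them RARA, RARB, the RXR genes, RDH10 and CYP26B1, were not analysed here. Of the 17, 12 were higher in the IPs, 3 were lower (RARG, NRIP1 and TGM2) and 2 did not pass the test (CYP26C1 and HOXA2). Without CRABP1, CYP26A1 and RARG, the counts were 10, 2 and 2 of 14, and the median log2 fold change was 2.77. The background for these counts is not that of all features. Every gene that can be tied had been called by the study, and among the 1654 tied genes 29.3% were higher and 27.1% lower, with a median of 0.80, against 0.10 over all features. All 3 IPs were above the input in 50.8% of tied genes and below it in 49.2%.

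Upstream of retinoic acid, LRAT and ALDH1A2 were higher in the IPs. LRAT, which esterifies retinol for storage, was at 4.38, 5.48 and 6.21 TPM in the IPs, against 0.217 TPM in the input, the input resting on 29 counts (log2 fold change 4.97, SE 0.481, adjusted p = 0.0310, edgeR). ALDH1A2, which carries out the last step of retinoic acid synthesis, was at 9.46, 8.19 and 10.7 TPM in the IPs, against 1.97 TPM in the input. ALDH1A2 was higher by 2.61 on the log2 scale (SE 0.340, adjusted p = 0.0423). CYP26A1, an enzyme of breakdown, exceeded ALDH1A2 by 20.8, 19.3 and 15.9 times in TPM in the IPs and by 9.43 times in the input. Of the 6 synthesis genes listed ALDH1A2 was the 1 that could be tied, so this ratio does not compare breakdown with synthesis.

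On the receiving side the direction was mixed. NRIP1, a co-regulator that binds nuclear receptors, was lower, at 23.4, 22.2 and 20.7 TPM in the IPs, against 46.4 TPM in the input (log2 fold change -0.74, SE 0.104, adjusted p = 0.0474, edgeR). Of the 9 response genes, those known to be switched on by retinoic acid in one cell type or another and their partners, 7 were higher, 1 was lower and 1 did not pass. RARRES2, which encodes the chemoattractant chemerin, was at 146, 131 and 107 TPM in the IPs, against 9.71 TPM in the input (log2 fold change 4.05, SE 0.255, adjusted p = 0.0216). TGM2, a transglutaminase, went the other way, at 22.8, 25.8 and 26.6 TPM in the IPs, against 120 TPM in the input (log2 fold change -1.83, SE 0.161, adjusted p = 0.0291).

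Among the HOX genes, which pattern the hindbrain along its length, HOXB2 was at 114, 107 and 87.6 TPM in the IPs, against 16.9 TPM in the input. HOXB2 was higher by 2.94 on the log2 scale (SE 0.191, adjusted p = 0.0219). HOXB3 had a log2 fold change of 3.17 (adjusted p = 0.0291). HOXA5 and HOXB5 drew 121 to 164 and 403 to 443 counts in the IPs, against 0 in the input, which makes them at least 54.5-fold and at least 158-fold higher in the IPs against a floor of 3 counts in the input library. HOXA2 was at 43.8, 54.1 and 54.1 TPM in the IPs, against 29.1 TPM in the input. Its log2 fold change of 1.14 did not pass (adjusted p = 0.0863). Salmon's counts were not stated to use strand, and of the 17 genes RARG and HOXA2 alone have no other annotated gene overlapping their span, so that reads shared with overlapping neighbours, several in the case of HOXB3, cannot be told apart.

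The nuclear receptor NR2F1 and the HOX partner MEIS2 were higher, with log2 fold changes of 1.58 and 1.27 (adjusted p = 0.0291 and 0.0333, edgeR). Calls close to the threshold depended on the filter. With no filter on low counts, CRABP2 and NRIP1 no longer passed (adjusted p = 0.0501 and 0.0525), and with a minimum of 50 counts in 2 libraries CYP26C1 did (adjusted p = 0.0355).

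**Figure D4:**
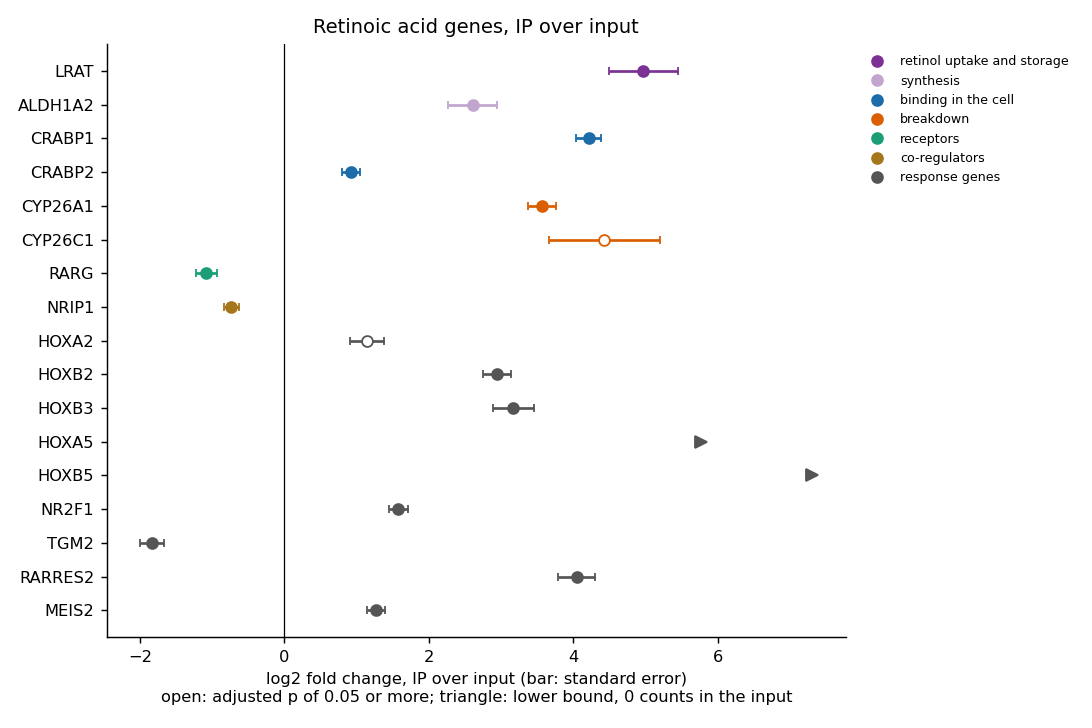
Log2 fold change of IP over input, with its standard error, for the 17 retinoic acid genes that could be tied, coloured by role; open circles did not pass the test, and triangles are lower bounds for HOXA5 and HOXB5, which had 0 counts in the input. RARG (-1.08), NRIP1 (-0.74) and TGM2 (-1.83) lie left of 0, and CRABP1 (4.21) and CYP26A1 (3.57) far to the right of it.

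The tied genes most like each of the 3 in their pattern over the 4 libraries were found by the root mean square difference of log2 CPM, each gene centred on its own mean, among 1613 genes. Nearest to CRABP1 were POU3F2, a neural transcription factor gene (0.070), the NOTCH ligand gene DLL1 (0.130) and PPP1R17, a phosphatase inhibitor gene (0.151). Their log2 fold changes were 4.34, 4.28 and 4.39. Nearest to CYP26A1 were RSPO3, which encodes a secreted enhancer of WNT signalling (0.102), FOXJ1, a regulator of motile cilia (0.121), and CNFN (0.129). RSPO3 was at 412, 325 and 292 TPM in the IPs, against 36.8 TPM in the input. Nearest to RARG were NELL2 (0.0252), SCYL2 (0.0300) and GORASP1 (0.0345), of which NELL2 had a log2 fold change of -1.12 and SCYL2 one of -1.04. CNFN, SCYL2 and GORASP1 did not pass the test (adjusted p = 0.0724, 0.0544 and 0.0537, edgeR). With 4 libraries, of which 3 are alike, this likeness rests mainly on the single contrast of IP with input.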

How the data were processed

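RNA was read by the authors as single reads of 75 bases after SMART-Seq v4 and Nextera XT library preparation. Per the labels and the study's methods, Salmon 0.8.2 was run against hg19 UCSC known gene transcripts. The deposited values are its estimated counts and its TPM, 1 per transcript for 69548 transcripts; DESeq2 1.20.0 served the authors for gene tests. The deposited files name no genes. Runs of up to 20 neighbouring transcripts were tied to gene rows of the study's table by mean count (within 3%), recomputed log2 fold change (within 0.001) and order of position (GENCODE v44lift37, GRCh37). Since the tie itself used the fold change, the sign of a tied gene's fold change is that of the table. Of 1998 rows available, 1654 were tied, 203 had no match, 120 had several, 13 had no position and 8 shared a transcript. The 3 genes and the lists were chosen with earlier results of these data known. Tied genes were summed, and all other transcripts were tested alone, where gene sums had been planned. Counts were rounded to whole numbers.

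edgeR 4.0.16 (R 4.3.3) was used with TMM, filterByExpr (minimum count 10), the quasi-likelihood test and Benjamini-Hochberg adjustment over all features, at a threshold of 0.05. It was also run on simulated counts with the same spread set for every feature, so that run does not vouch for the calls here. Each SE was derived from this test, as the size of the log2 fold change divided by the square root of the F statistic. CPM and TPM ratios are descriptions, and SDs are over the 3 IPs, each from its own differentiation. Also tried were scaling by median ratios, limma-voom (limma 3.58.1), DESeq2 1.42.0 (plain, and with transcript length as offset), other count filters, leaving out each IP, each transcript on its own, and the labels' assignment. Named are the 3 genes, every tied gene of the retinoic acid list (2 genes taken off the list before counting are not reported here), ATOH1, and the 3 tied genes nearest in pattern to each of the 3, at a mean of at least 5 CPM and with a prior count of 0.5. Of the other marker lists, 1 of 7 roof plate and choroid plexus genes, 1 of 5 for pluripotent cells and 3 of 8 astroglial genes could be tied. AQP1 (roof plate and choroid plexus) was at 0.930 to 1.75 TPM in the IPs, against 9.29 TPM in the input. LIN28A (pluripotent cells) was at 3.79 to 7.04 TPM in the IPs, against 0.812 TPM in the input. The 3 astroglial markers went different ways. SOX2 was at 18.3 to 22.9 TPM in the IPs, against 2.30 TPM in the input. FABP7 was at 46.5 to 67.2 TPM in the IPs, against 20.1 TPM in the input. SOX9 was at 25.1 to 29.4 TPM in the IPs, against 119 TPM in the input. Reads carry no molecular identifiers, so intervals cover counting error only.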

Additional observations from a re-analysis of the deposited data

How the results depend on the processing

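The fold changes of CRABP1, CYP26A1 and RARG kept their direction under every alternative except the labels' assignment, at 4.13 to 4.27, 3.51 to 3.62 and -1.46 to -1.04, with adjusted p from 4.25e-185 (DESeq2) to 0.202 (edgeR without 1 IP). The DESeq2 values repeat the study's kind of test on the same libraries, by which these genes had already been called. Calls did not hold as well as direction did. With limma-voom the values were 4.21, 3.56 and -1.09 (adjusted p = 0.0718, 0.0692 and 0.0692), and with any 1 IP left out they ran from 4.13 to 4.27, 3.51 to 3.62 and -1.14 to -1.04 (adjusted p from 0.108 to 0.202). The RARG transcript with the most reads alone gave -1.46 (adjusted p = 0.0655).

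Of 43721 features, edgeR called 1661, DESeq2 9830 without and 9865 with the length offset, and edgeR 2989 of 27714 with at least 50 counts in 2 libraries. limma-voom called 0, against 3794 higher and 6395 lower before adjustment (p under 0.05). Leaving out any IP gave 0 in edgeR (0 to 0), with 3561 to 4252 higher and 3134 to 3652 lower unadjusted, and the labels gave 0, with 1035 higher and 227 lower unadjusted. Of the retinoic acid genes, edgeR called 15, DESeq2 17 in both forms and limma-voom 0; leaving out any IP gave 0 (0 to 0). In limma-voom and in each fit without 1 IP, 14 were higher and 3 lower unadjusted. The labels gave 0 by either p. All 17 had already been called by the study's DESeq2 test on the same libraries, so their DESeq2 calls here were fixed by that selection. Among all tied genes edgeR called 29.3% higher and 27.1% lower.

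With the labels' assignment these log2 fold changes turned: CRABP1 -0.37, CYP26A1 -0.70, RARG 0.33, LRAT -0.059, ALDH1A2 -0.35, CRABP2 -0.21, CYP26C1 -1.16, NRIP1 0.25, HOXB2 -0.64, HOXB3 -0.70, HOXA5 -0.86, HOXB5 -0.69, NR2F1 -0.42, TGM2 1.12, RARRES2 -0.76, MEIS2 -0.34, ATOH1 -0.17, POU3F2 -0.26, DLL1 -0.68, PPP1R17 -0.62, RSPO3 -0.80, FOXJ1 -0.74, CNFN -0.48, NELL2 0.30, SCYL2 0.32 and GORASP1 0.27, all with an adjusted p of 1.0. That assignment puts the library taken here as input among the IPs. No paired analysis was possible because there is 1 input library, which shares a replicate number with 1 IP at most. For the other changes of a call the cause was not tested, beyond that the fits without an IP have fewer libraries.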
